A study of Mus musculus with 8 samples.

Results

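Fatty acid uptake and binding in white preadipocytes on the way to brown-like adipocytes was followed through 6 genes, Lpl, Cd36, Slc27a1, Acsl1, Fabp4 and Fabp5. They were chosen by name, as the genes that free, import, activate and carry fatty acids, and all 6 had at least 1 entry in a table of cluster markers, with 55 of its 13337 entries and 6 of its 3903 gene symbols. The cells were preadipocytes of inguinal white fat of C57BL/6 mice, either wild type (WT) or Hmgn1-/- and Hmgn2-/- (DKO). They were collected at day 0 and at day 6 of a browning protocol. That protocol began with insulin, dexamethasone, IBMX, T3 and rosiglitazone, the last an agonist of PPARγ. Per the study's methods, the cells were by day 6 in a maintenance medium with insulin and T3 only. There were 2 samples per genotype and day, 8 in all, and their single-cell 3′ RNA profiles were pooled into 12 clusters numbered 0 to 11. The DKO cells came from mice lacking both genes, and the preadipocytes were primary cultures grown on collagen, not a line or a clone.

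Fat cells take up fatty acids in steps. Lipoprotein lipase (Lpl) is secreted and cuts triglycerides of circulating lipoproteins, CD36 and FATP1 (Slc27a1) help the released fatty acids across the plasma membrane, and long-chain acyl-CoA synthetase 1 (Acsl1) traps them as acyl-CoA. FABP4 and FABP5 are small cytosolic proteins that bind fatty acids and carry them through the water phase. Fabp4, also called aP2, Cd36 and Lpl are textbook targets of PPARγ and marks of adipocyte differentiation, though macrophages and capillary endothelium express several of these genes as well.

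Each value below sets 1 cluster against the rest of the cells, with all samples pooled. The table has no value for a sample, genotype or day, so there is no replicate and no error over samples behind any value, no test was made, and neither DKO against WT nor day 6 against day 0 could be compared. All log2 fold changes and detection percentages are the authors' values, and detection is the share of cells with at least 1 transcript of the gene counted. An entry was called higher or lower at a log2 fold change of 0.5 or more in either direction. Where a gene lacks an entry for a cluster it was not taken as 0. The study's methods set minimums for the fold change and the detection of an entry, so a gene below either is not listed. For a single gene and cluster, the table gives no reason for the lack. The clusters had been made from the expression of these same cells, so each contrast describes a cluster and does not test it. The cell numbers and read depth reached are unknown, as the study's methods state only targets for them. Whether RNA free in the droplets contributed to low detection was not tested.

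The genes lie on 3 chromosomes of the mouse genome (mm10, GENCODE vM21, all protein-coding). Fabp5 (chromosome 3, 10012548 to 10016607, plus strand) and Fabp4 (chromosome 3, 10204088 to 10208576, minus strand) lie close to each other, with 187 kb between them that also hold Pmp2 and Fabp9, further members of the FABP family. Cd36 is on chromosome 5 (17781690 to 17888801, minus strand). Acsl1 (46471037 to 46536051), Lpl (68880491 to 68907448) and Slc27a1 (71568882 to 71587302) are far apart on the plus strand of chromosome 8.

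In cluster 8, Cd36 was high and Acsl1 had no entry, so these genes could not be compared there. In the 9 clusters that list both, their log2 fold changes were alike (Pearson's r of 0.98). The 250 bases before their RefSeq transcription starts (GRCm38.p6) are therefore shown side by side. Of the 6 genes, 3 had a start in the table of promoters used. Capitals mark, on either strand, the GC box GGGCGG, the CCAAT box and the nuclear receptor half-site AGGTCA, the unit of PPAR response elements. The Cd36 window, chr5:17835897-17836146 on the minus strand, lies within an intron of the annotated gene, as does the second Acsl1 window, chr8:46490716-46490965 on the plus strand. The first Acsl1 window, chr8:46470787-46471036 on the plus strand, ends 1 base before the annotated gene.
Cd36: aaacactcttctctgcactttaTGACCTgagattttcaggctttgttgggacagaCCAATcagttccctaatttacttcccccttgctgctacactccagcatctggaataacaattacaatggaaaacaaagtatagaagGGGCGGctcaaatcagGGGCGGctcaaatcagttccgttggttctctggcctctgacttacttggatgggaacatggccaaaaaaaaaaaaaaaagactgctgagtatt
Acsl1, first start: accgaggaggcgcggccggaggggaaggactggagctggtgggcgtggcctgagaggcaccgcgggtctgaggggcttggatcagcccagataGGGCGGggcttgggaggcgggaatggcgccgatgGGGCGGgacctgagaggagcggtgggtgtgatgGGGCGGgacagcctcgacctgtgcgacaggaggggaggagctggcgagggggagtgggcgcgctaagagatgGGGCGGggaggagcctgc
Acsl1, second start: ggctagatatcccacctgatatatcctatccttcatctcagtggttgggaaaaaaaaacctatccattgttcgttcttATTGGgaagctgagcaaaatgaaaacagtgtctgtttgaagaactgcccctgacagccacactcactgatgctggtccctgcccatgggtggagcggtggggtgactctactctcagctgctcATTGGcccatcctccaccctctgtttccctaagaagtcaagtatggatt

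The 3 windows differed in composition. GC made up 43.2% of the Cd36 window and 48.4% of the second Acsl1 window, but 72% of the first Acsl1 window, against a median of 52.4% over all 32851 windows. The Cd36 window held 2 GC boxes, 1 CCAAT box and 1 half-site, while the first Acsl1 window held 4 GC boxes and the second 2 CCAAT boxes. Of all windows, 32.7% held a GC box, 33.8% a CCAAT box and 14.0% a half-site. No TATAAA, which 12.4% of all windows held, was found in these 3. A match describes letters and not a bound site.

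All 6 genes had their largest listed log2 fold change in cluster 11, the smallest cluster with 1.5% of all cells. Slc27a1 had entries only in clusters 4 and 11, both above 0, so its place in these counts was in part set by where it was listed. There, 6 of 6 were called higher, against 20.3% of the 2487 genes listed for this cluster, and their median log2 fold change was 3.10 beside -0.30 over all listed genes. Fabp5 (3.62), Fabp4 (3.56) and Acsl1 (3.46) were at ranks 2, 3 and 4 of the 2487 genes, Cd36 (2.74) was at rank 9, Lpl (1.83) at rank 40 and Slc27a1 (0.54) at rank 461. Nearly every cell of cluster 11 carried the first 5 of these transcripts, since Fabp4, Fabp5 and Lpl were detected in 100% of its cells, Cd36 in 99.8% and Acsl1 in 99.5%. Of these 5, Cd36 and Acsl1 set the cluster furthest apart in detection, as they were found in 28.4% and 27.1% of all other cells, while Lpl was found in 92%.

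Cluster 4, with 9.59% of the cells, was second for Fabp4, Fabp5, Cd36 and Acsl1 among the clusters with an entry. It had 5 of 6 members called higher, against 12.9% of its 2072 listed genes, with a median of 2.11 beside -0.34 over all listed genes. Fabp4 (3.08) was at rank 4, Fabp5 (2.30) at rank 6, Cd36 (2.24) at rank 8 and Acsl1 (1.98) at rank 12. Lpl (0.70, rank 167) and Slc27a1 (0.25, rank 536) had smaller values and were detected in fewer cells than elsewhere, 88.7% against 92.5% for Lpl and 4.7% against 12.1% for Slc27a1. Cluster 4 was a low-detection cluster, where the median listed gene was found in 10.8% of its cells and in 63% of the rest, and the part of this in the members' fold changes was not tested. All members but Slc27a1 stood above that median, with Fabp4 detected in 98.5%, Fabp5 in 97%, Cd36 in 69% and Acsl1 in 44.5% of the cells of cluster 4.

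Adipocyte genes that are no members were also high in both clusters. Of 10 (Adipoq, Plin1, Plin4, Cidec, Lipe, Pnpla2, Pparg, Cebpa, Dgat2 and Scd1), 10 were called higher in cluster 11, against 20.3% of all listed genes, and 9 in cluster 4, against 12.9%, with medians of 2.01 and 1.26. The exception was Dgat2 with 0.33 in cluster 4, where Dgat2, Cebpa and Pparg were detected in fewer cells than elsewhere. Of the 10 macrophage markers looked up, Ptprc, Csf1r and Adgre1 among them, 0 had an entry in any cluster. Of 8 endothelial markers 1 had an entry, Egfl7 with 0.27 in cluster 6, and Pecam1, Cdh5 and Gpihbp1 had none. The study had removed immune and endothelial cells before clustering.

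**Figure D1:**
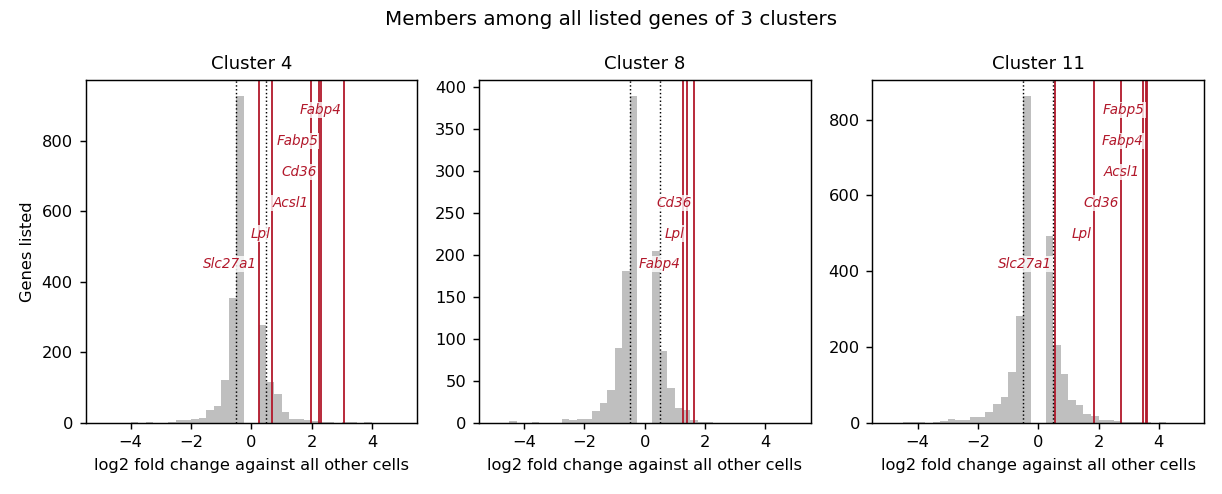
Histograms of the log2 fold changes of all listed genes in clusters 4, 8 and 11 (x axis, log2 fold change against all other cells; y axis, number of genes in bins of 0.25), with red lines at the members and dotted lines at 0.5 in either direction. The members lie in the right tail of each cluster, from 1.25 to 1.64 in cluster 8, except Slc27a1, which lies at 0.25 in cluster 4 and 0.54 in cluster 11.

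Cluster 8, with 5.92% of the cells, was the third with high members. Cd36 (1.64), Lpl (1.40) and Fabp4 (1.25) were all 3 called higher, against 14.6% of its 1126 listed genes, at ranks 4, 9 and 20. Cd36 was detected in 87.7% of these cells, and elsewhere in 25.8%. Fabp5 had no entry there. Its detection in cluster 8, obtained by subtracting the other 11 clusters from all cells, was 99.3% with a rounding error of 1.64 points, and its level was 1.13 times that of all cells, a log2 fold change of about 0.18, below the smallest fold change listed in the table. In cluster 6, with 7.46% of the cells, all 4 listed members were slightly up, Fabp4 by 0.43, Fabp5 by 0.41, Cd36 by 0.32 and Acsl1 by 0.25, so that 0 of 4 were called, against 14.4% of all genes listed for it.

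To place clusters on 1 scale, each fold change was turned into a level relative to all cells, the mean normalised expression of the cluster with the 1 that Seurat adds, divided by the same over all cells. On this scale, Fabp4 covered the widest range of the 5 genes with entries in at least 9 clusters. Its level was 10.2 times that of all cells in cluster 11, 4.94 times in cluster 4 and 2.20 times in cluster 8. Clusters 6 (1.32 times), 2 (0.58) and 7 (0.47) came next. In clusters 0, 1, 3, 5, 9 and 10 it was between 0.048 and 0.128. From cluster 1 to cluster 11 this is a 212-fold difference, against 33.4-fold for Fabp5, 19.2-fold for Acsl1, 18.7-fold for Cd36 and 6.23-fold for Lpl.

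**Figure D2:**
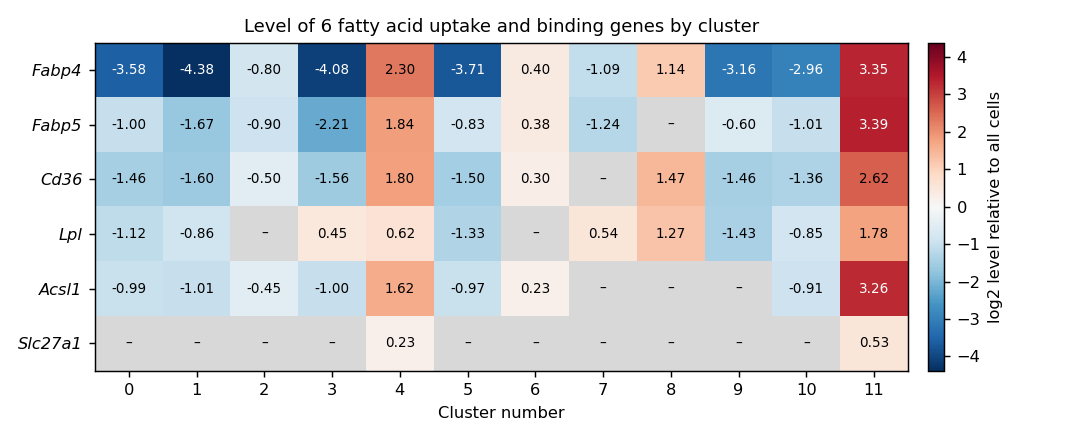
Heat map of the log2 level relative to all cells (colour and printed number) of each gene (rows) in clusters 0 to 11 (columns), where grey cells with a dash have no entry. Fabp4 runs from -4.38 in cluster 1 to 3.35 in cluster 11, while Lpl stays between -1.43 and 1.78.

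A mean cannot be below 0, so the lowest cluster sets a minimum for the mean over all cells, provided that Seurat's default of 1 was added. For Fabp4 this minimum was 19.9 normalised counts per 10000 over all cells and 211 in cluster 11. The minimums in cluster 11 were 47.6 for Fabp5, 18.2 for Acsl1, 17.7 for Cd36 and 8.27 for Lpl. The libraries count 3′ ends, so these values are given per gene and not ranked against each other.

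Clusters 4 and 11 together held 11.1% of the cells and a larger part of the summed level of the members, level times number of cells, by far for 4 of them. They accounted for 62.6% of the summed level of Fabp4, 50.0% of Fabp5, 43.8% of Acsl1 and 42.6% of Cd36, and for 19.9% of Lpl and 13.4% of Slc27a1. They are shares of depth-normalised expression and not of transcripts. Because of the added 1, these are lower limits for the share of the normalised expression itself. The larger cluster 4 gave more than cluster 11 for each gene, 47.3% against 15.3% for Fabp4. Per cell the order was the opposite, since the level in cluster 11 was 2.06 times that of cluster 4 for Fabp4, 2.94 times for Fabp5, 1.77 times for Cd36, 3.12 times for Acsl1, 2.24 times for Lpl and 1.24 times for Slc27a1. With the added 1, these ratios are lower limits as well.

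**Figure D3:**
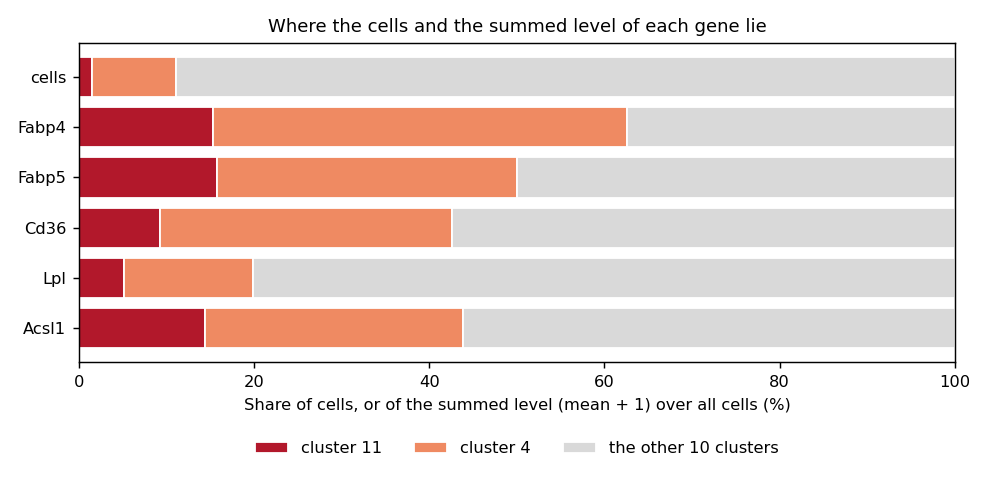
Stacked bars of the share of cells (top bar) and of the summed level, mean plus 1, over all cells (x axis, percent) held by cluster 11 (dark), cluster 4 (light red) and the other 10 clusters (grey), for the 5 genes with entries in at least 9 clusters. Both red parts reach 11.1% of the cells, 62.6% for Fabp4 and 19.9% for Lpl.

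Members were low in 6 clusters, 0, 1, 3, 5, 9 and 10, with Lpl in cluster 3 as the exception. In cluster 0, 5 of 5 listed members were called lower, against 16.1% of all listed genes, and in cluster 1 it was 5 of 5 against 15.2%. Cluster 3 had 4 of 5 lower, against 21.1%, and 1 higher, against 17.3%. In cluster 5, with the proliferation genes Pclaf and Top2a among its leading genes, 5 of 5 were lower against 10.6%. In cluster 9, led by the cell division genes Ube2c and Cenpf, it was 4 of 4 against 8.96%, and in cluster 10 it was 5 of 5 against 13.0%. Cluster 6 was also high in proliferation genes, with 1.96 for Top2a, 1.76 for Mki67 and 1.16 for Birc5, but its listed members were slightly up. Its level of Fabp4 was 17.2 times that of cluster 5 and 11.8 times that of cluster 9. Cluster 10 was a second low-detection cluster, in which the median listed gene was found in 8.1% of its cells and in 62.4% of the rest, and the members were found in 1.3% (Acsl1) to 32.4% (Lpl).

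Detection told the 5 genes apart in clusters 0, 1, 3, 5 and 9. Cd36 was nearly absent, found in 2.5%, 1%, 1.8%, 2.4% and 3.5% of their cells. Acsl1 was found in 10% to 18.2% of the cells of clusters 0, 1, 3 and 5. Fabp4 was still found in 52.6% to 67.7% of the cells of these 5 clusters, although its mean was at most 0.112 times that of all cells. Fabp5 was found in 56.7% (cluster 3) to 95.6% (cluster 9) and Lpl in 88.4% to 98.5%. Over all cells, detection was 92.1% for Lpl, 83.4% for Fabp5, 73.7% for Fabp4, 29.5% for Cd36, 28.2% for Acsl1 and 11.4% for Slc27a1. It came out the same from each cluster of a gene within 0.093 percentage points. This is in part built in, since the cluster shares were solved for such equality, with Fabp4 among the genes used.

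**Figure D4:**
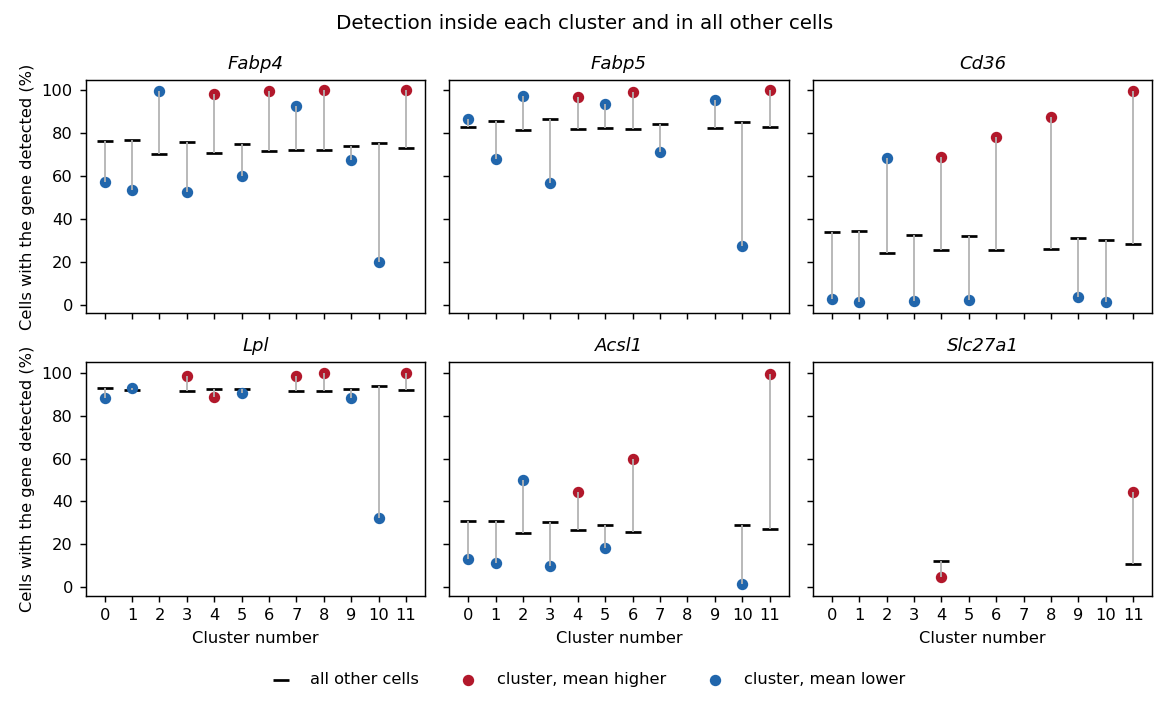
Percent of cells with the gene detected (y axis) inside each cluster (points, red where the mean was higher than in all other cells and blue where it was lower) and in all other cells (black dashes), for each gene and cluster number (x axis). In the clusters with an entry, Cd36 is at 3.5% or less or at 68.4% or more, and the blue points of cluster 2 lie above their dashes.

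Cluster 2, with 12.1% of the cells, combined wide detection with a low mean. All 4 members listed there, Fabp4 (-0.88), Fabp5 (-0.99), Cd36 (-0.56) and Acsl1 (-0.51), were called lower, against 30.5% of its listed genes, yet all 4 were detected in more of its cells than elsewhere. Cd36 was found in 68.4% against 24.1%, Acsl1 in 50% against 25.2%, Fabp4 in 99.6% against 70.1% and Fabp5 in 97.6% against 81.4%. Of the 778 genes with a lower mean in cluster 2, 26.2% were detected in more of its cells. Single members did the same in other clusters, Fabp5 in clusters 0, 5 and 9, Lpl in cluster 1 and Fabp4 in cluster 7. The cells it was compared with included clusters 4, 8 and 11. Set against cluster 1 alone, the log2 level in cluster 2 was higher by 3.59 for Fabp4, 1.10 for Cd36, 0.77 for Fabp5 and 0.55 for Acsl1. Against cluster 0 these differences were 2.78, 0.95, 0.10 and 0.54, and for Fabp5 the level in cluster 2 (0.54 times that of all cells) was below those of clusters 5 (0.56) and 9 (0.66).

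Cluster 7, with 6.6% of the cells, stood between these groups. Fabp4 (-1.15) and Fabp5 (-1.30) were 2 of 3 listed members called lower, against 9.81% of its listed genes, and Lpl (0.59) was called higher, against 31.3%. Fabp4 was nevertheless found in 92.6% of these cells and in 72.3% elsewhere, and its level was 9.77 times that of cluster 1. Cd36 had no entry there, but subtraction gave detection in 13.4% of its cells, with a rounding error of 1.46 points, and a level 0.50 times that of all cells. This is a larger difference than the smallest listed ones, and why Cd36 has no entry in cluster 7 is not known.

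Lpl differed from the fatty acid binding proteins in some clusters. It was the only member called higher in cluster 3 (0.51) and in cluster 7 (0.59), where Fabp4 and Fabp5 were called lower, and its level in cluster 8 was 2.41 times that of all cells, above the 1.53 times of cluster 4. In the 2 clusters without an entry, 2 and 6, subtraction gave detection in 99% of the cells and a level of 1.03 times that of all cells. Among pairs of the 5 genes with entries in at least 9 clusters, Pearson's r of the log2 fold changes ran from 0.62 (Fabp5 and Lpl, 9 clusters, Spearman's rho 0.18) to 0.98 (Fabp4 and Cd36, 11 clusters, rho 0.99). Without clusters 4 and 11, r for Fabp5 and Lpl turned to -0.67 over 7 clusters, while Fabp4 and Cd36 had 0.96 over 9. With the other genes Lpl had r of 0.81 (Fabp4), 0.86 (Cd36) and 0.86 (Acsl1), and without these clusters 0.74 with Fabp4 and 0.77 with Cd36. These points share their comparison cells and carry no p.

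The 3 genes most alike to each member over clusters were picked from all genes sharing enough clusters with it. For Acsl1, they were Plin1, the coat protein of lipid droplets (r of 0.998 over 9 clusters), Pde3b, a phosphodiesterase that restrains lipolysis (0.998 over 8), and Arxes1 (0.997 over 8), of 133 genes compared. Cd36 was nearest to Pnpla2, the triglyceride lipase ATGL (0.995), Cat, catalase (0.995), and Retn, resistin (0.988), each over 9 clusters. Fabp5 was nearest to Plin1 (0.976 over 9), Acsl1 (0.974 over 9) and Cd36 (0.960 over 10). Without clusters 4 and 11, these 3 values fell to 0.839, 0.825 and 0.758. Fabp4 was nearest to Fcor (0.986 over 10), Cd36 (0.983 over 11) and the mitochondrial transcript mt-Atp8 (0.978 over 10). Its values without clusters 4 and 11 were 0.968, 0.960 and 0.976. For Lpl the nearest were Trappc6a (0.985), Adipor2, an adiponectin receptor (0.970), and Cyb5a, cytochrome b5 (0.969), each over 8 clusters. Without clusters 4 and 11, the lowest value for Acsl1, Cd36 and Lpl was 0.975 (Lpl and Cyb5a).

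Slc27a1 was the scarcest member, with entries in clusters 4 and 11 only. Cells with its transcript made up 44.6% of cluster 11 and 10.9% of the rest. Over the 10 clusters without an entry, which hold 88.8% of the cells, subtraction gave a detection of 11.6% and a level of 0.97 times that of all cells. The same subtraction for Acsl1 gave detection in 31.2% of the cells and a level of 0.70 over clusters 7, 8 and 9 combined.

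Of 59 other genes of fatty acid uptake and binding, 22 had an entry. Their 104 entries included 26 called higher and 41 called lower, against 16.7% and 21.4% of all 13337 entries. Lower calls prevailed in clusters 0 (5 of 10, against 16.1% of all genes listed there), 1 (4 of 6, against 15.2%) and 5 (5 of 7, against 10.6%). They also outnumbered higher calls in clusters 2 (4 of 8, against 30.5%), 3 (3 of 6, against 21.1%) and 9 (3 of 7, against 8.96%). Higher calls there were 2, 2 and 0, against 140 of 1133, 74 of 427 and 185 of 938 listed genes. In cluster 10, 2 of 12 were lower, near the 13.0% of all genes listed there, and 0 were higher, against 36 of 718. In cluster 6, 4 of 10 were lower and 1 higher, against 263 lower of all 1416 listed genes. Higher calls prevailed in cluster 7 (4 of 5, against 31.3%). In cluster 11, 5 of 13 were called higher and 4 lower, against 20.3% and 25.2% of all genes listed there, with a median of 0.33 beside -0.30. In cluster 4 these numbers were 4 and 4 of 12, against 12.9% and 29.1%, with a median of 0.02 beside -0.34, and in cluster 8 they were 4 and 2 of 8, against 14.6% and 32.7%, with a median of 0.42 beside -0.37. With values in both directions in the same clusters, the list is described by role.

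Among binding proteins, Dbi, which carries acyl-CoA, and Scp2, a carrier of sterols and fatty acids, were called higher in clusters 4 and 11, but not in cluster 8. Dbi had 2.04 in cluster 4 and 2.01 in cluster 11, and Scp2 had 1.39 and 2.09. In cluster 4 both were detected in fewer cells than elsewhere, 89.8% against 92.4% for Dbi and 72.5% against 89.7% for Scp2. Rbp4, a secreted retinol carrier, had 3.15 in cluster 11, 1.45 in cluster 8 and 1.39 in cluster 4. Fabp3, the heart form, had 4 entries of at most 0.28 in size, and the neighbours of Fabp4 on chromosome 3, Pmp2, Fabp9 and Fabp12, had none.

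Of the partners of lipoprotein lipase, Angptl4, which is secreted and inhibits the enzyme, was called higher in the 3 clusters with the highest listed Lpl, by 1.39 in cluster 8, 0.81 in cluster 11 and 0.62 in cluster 4. Cluster 8 had it in 85% of its cells and the rest in 30.3%, while cluster 4 had it in 20.9% and the rest in 34.9%. Apoe, a ligand of lipoprotein receptors, peaked in cluster 7 (1.55) and was lower in cluster 4 (-0.58). Gpihbp1, which anchors the enzyme on endothelium, and Lmf1, which matures it, had no entry.

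Of the lipoprotein receptors, Vldlr and Lrp1 had their largest values in cluster 2, where the listed members were called lower. Vldlr had 0.98 there and 0.74 in cluster 8, where members were called higher, and Lrp1 had 0.56 there, 0.54 in cluster 8 and -1.12 in cluster 11. Scarb1, a receptor for high density lipoprotein, had 0.33 in cluster 11, its only entry. Among the other transport proteins, Got2, an aspartate aminotransferase also described as a fatty acid binding protein of the plasma membrane, had 0.54 in cluster 11, and Slc27a2 to Slc27a6 had no entry. Acsl4, a synthetase that prefers arachidonic acid, had 0.45 in cluster 2 and 0.35 in cluster 6, and Acsl3, Acsl5 and Acsl6 had no entry. The thrombospondin gene Thbs1, whose product is a ligand of CD36, had -3.49 in cluster 11, -2.65 in cluster 8 and -2.60 in cluster 4. Thbs1 was also below 0 in clusters 6 (-2.23), 2 (-2.10) and 3 (-0.49), and Cd36 was itself called lower in clusters 2 and 3.

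**Figure D5:**
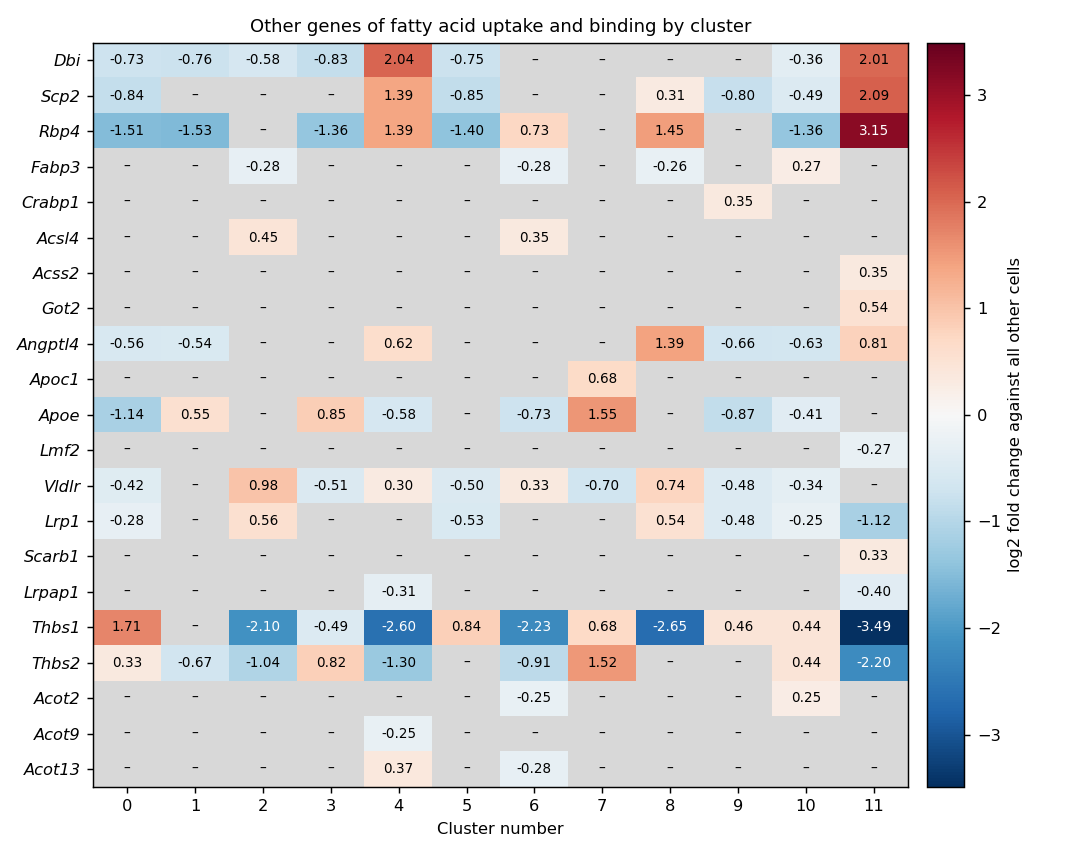
Heat map of the log2 fold change against all other cells (colour and printed number) of other listed genes of fatty acid uptake and binding (rows) in clusters 0 to 11 (columns), where grey cells with a dash have no entry. Dbi, Scp2 and Rbp4 are red in clusters 4 and 11, and Thbs1 and Thbs2 are blue there.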

How the data were processed

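Single-cell 3′ RNA was measured in 8 samples in 4 groups of 2, grouped by their titles. Per the study's methods and the submitters' processing notes, the authors mapped reads to mm10 with Cell Ranger 6.0.0, pooled the samples after equalising read depth, filtered and log-normalised the expression matrix in Seurat, took out endothelial, glial and immune cells, clustered the rest and compared each cluster with the remaining cells by MAST. The deposited log2 fold changes start at 0.25 in absolute size, and the deposited detection fractions, printed as percents, reach at least 10.1% in the larger of the 2. The study's methods name a minimum for both. Deposited p-values, adjusted or not, treat cells as replicates and were not used. Doublets are not mentioned in the methods and could not be looked for. Columns of values per sample left unused number 0.

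Shares of clusters were solved by least squares from the detection fractions of the 10 genes listed for all clusters, as the detection over all cells must be equal from each cluster. Levels relative to all cells, and values for clusters without an entry, follow from these shares. Shares and levels of listed entries were also tested on simulated data, with a looser minimum of listed clusters per gene. Values for clusters without an entry were not tested in this way. The rounding error is the largest that the 3 decimals of the fractions allow. Named genes were all members, listed genes of the fixed list of 59, and the 3 genes most correlated with each member listed in at least 6 clusters, among genes sharing at least 6 and 80% of its clusters. Cell type markers and some leading genes of clusters were named as well. Rbp4 stands in that list among cytosolic proteins although it is secreted. One gene of the list is part of its counts and is otherwise not reported here. Members and lists were chosen with earlier results of these data known. Gene positions come from GENCODE vM21 and promoter windows from RefSeq (GRCm38.p6). Values were computed in Python 3.11.15 with pandas 2.3.3 and numpy 2.4.6, correlations with scipy 1.17.1, and plots with matplotlib 3.10.9.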

Additional observations from a re-analysis of the deposited data

How the results depend on the processing

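No paired analysis was possible because no sample has a value of its own, and for the same reason no replicate could be left out. Of 41 alternative values that could differ from the reported ones, 36 stayed within set limits and 5 moved. The limits were 1.5 times for a count, 0.2 percentage points for a detection and 0.1 for a log2 level. That 0 reversed says little, since counts and detections have no direction here. Other shares cannot turn the sign of a log2 level either. The 16 higher and 34 lower entries of the members, and the counts of 5 in cluster 4 and 6 in cluster 11, stayed within 1.5 times at a log2 fold change of 0.25 or 1, at a detection of at least 25% and, for the totals, without clusters 4 and 10. For the list of 59 genes, the higher entries rose from 26 to 44 at a minimum of 0.25 and fell to 11 at 1, and the lower entries fell from 41 to 19 at 1, by construction. By the largest difference of detection, 3 of 6 members kept cluster 11 as leading, while Fabp4 went to cluster 2, Fabp5 to 6 and Lpl to 8 (in cluster 11, detection of these 3 was 100%). The median r of member pairs fell from 0.93 to 0.77 without clusters 4 and 11, an alternative chosen after seeing the data. Shares from the 2691 genes listed for at least 2 clusters moved no share by more than 0.058 points and no log2 level in clusters 4 and 11 by more than 0.003, and reading the fold change without a pseudocount gives the same 12 levels by construction, which are not counted here. Some levels by subtraction, not counted among the 41, moved more with these shares. Fabp5 in cluster 8 went from 1.13 to 1.10 times that of all cells, and Cd36 in cluster 7 from 0.50 to 0.48. The number of cells and the depth behind the fractions limit all values and are unknown.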
